A study of Arabidopsis thaliana with 12 samples.

Results

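The response of Arabidopsis leaves to an active MAP kinase kinase was compared between plants that can and plants that cannot make salicylic acid (SA) through SID2. The quantity described here is the interaction of background and treatment, that is the DEX effect in sid2 minus the DEX effect in Col, on the log2 scale. It draws on 12 of the 12 arrays of the series, 3 in each of 4 groups, and was computed for 32627 loci, over all arrays and within each replicate number. A value above 0 means that the DEX effect was more positive in sid2, and a value below 0 that it was more negative. Because the same number can come from plants that differ before treatment or after it, each gene was also placed by its sid2 minus Col difference in mock and in DEX.

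All plants carried a transgene for MKK4DD, in which the MAP kinase kinase MKK4 is locked in its active state, behind a promoter that dexamethasone (DEX) switches on. The 4 groups were Col (wild type at SID2) with mock, Col with DEX, sid2 with mock and sid2 with DEX, where sid2 is the mutant sid2-2. Leaves of plants 4 weeks old were infiltrated with 2 µM DEX or, for mock, with 0.1% ethanol and were collected 24 hours later. The sid2 line was obtained by crossing the transgene of the Col line into the mutant, so each background was represented by 1 line. Plants without the transgene were not analysed here, so an effect of DEX itself cannot be told apart from that of MKK4DD, and it enters the interaction if it differs between the backgrounds.

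SA is made from isochorismate, and the isochorismate synthase SID2 carries out the step that supplies most of it during defence. Rising SA acts through NPR1 and its relatives NPR3 and NPR4 on transcription, with PR1 as the usual marker, and SA is removed again by hydroxylases such as DMR6 and by sugar transferases. MKK4 feeds a separate branch, the MAP kinases MPK3 and MPK6, which can switch on part of the same defence genes.

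The samples fitted their label as leaf material. The 4 mesophyll markers summed to between 16.06 and 16.34 in log2 intensity in mock and to between 14.21 and 14.97 in DEX, and the ranges of the backgrounds overlapped in DEX, while in mock sid2 (16.19 to 16.34) lay slightly above Col (16.06 to 16.15). Root markers summed to between 5.86 and 6.27 in all groups, with 2 of 4 members under the lower quartile of all values, and 2 of 3 flower markers were under it too. In whole leaves, fewer cells of a type and less RNA per cell cannot be told apart. MKK4 itself, whose probes may read the transgene as well as the resident gene, lay between 11.75 and 12.36 in the 6 mock arrays and between 13.82 and 14.23 in the 6 DEX arrays. Its interaction was 0.11 ± 0.20 (SE) over all arrays, and its levels overlapped between the backgrounds within each treatment.

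SID2, which the gene table lists as EDS16 (AT1G74710), was read first because it checks the labels. In Col mock its log2 intensity was 10.36, 9.72 and 10.21 in replicates 1, 2 and 3, and in sid2 mock it was between 6.0 and 6.26. After DEX the Col arrays gave 12.48, 6.08 and 12.26, and the sid2 arrays gave 6.11, 6.01 and 6.21. The array labelled Col DEX replicate 2 therefore went against its label, with SID2 at the level of the mutant. Across all loci that array correlated most closely with sid2 DEX replicate 2 (r = 0.9963), against 0.9944 with Col DEX replicate 3 and 0.9917 with Col DEX replicate 1. What the array holds was not tested. Results come from the 12 arrays and from the 11 that remain without it, called the 12-array fit and the 11-array fit, and each is given with the fit it comes from. The interaction of EDS16 was -0.20 ± 1.68 (SE) in the first and -2.27 ± 0.23 (adjusted p = 0.0135, limma) in the second.

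**Figure D1:**
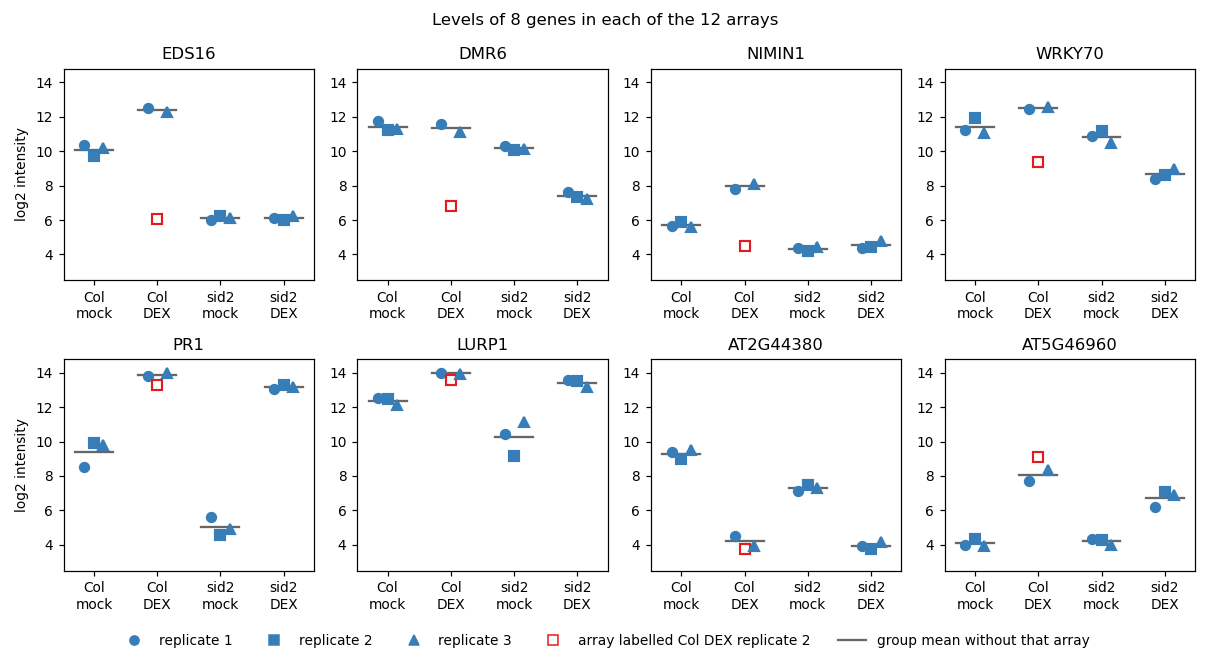
Log2 intensity of 8 genes in each array, by group, with 1 symbol for each replicate number, an open red square for the array labelled Col DEX replicate 2 and a bar for the group mean without it. For EDS16, DMR6, NIMIN1 and WRKY70 that array lies near or below the sid2 DEX arrays, and for PR1, LURP1 and AT2G44380 the backgrounds differ in mock instead.

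Few loci passed the test of the interaction itself. In the 12-array fit 0 of 32627 were called at an adjusted p under 0.01 with more than a 2-fold difference (limma, percentage called 0), and the smallest adjusted p was 0.225. An unadjusted p under 0.05 was reached by 734 loci for the interaction (2.25%), by 6.95% of loci for the mock difference and by 5.77% for the DEX difference. In the 11-array fit 3 loci were called, all of them lower in sid2 (0.00919%), 10 passed an adjusted p under 0.05 (0.0306%), and 952 (2.92%) had an unadjusted p under 0.05. In that fit the unadjusted shares were 6.8% for the mock difference and 6.11% for the DEX difference. With no interaction at any locus, a share of about 0.05 would be expected under that limit, and both interaction shares were below it. By comparison, the DEX effects themselves were called for 9372 loci in Col (28.7%) and 9081 in sid2 (27.8%) in the 12-array fit, and for 27.7% and 27.8% of loci in the 11-array fit.

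To describe where differences lay, candidate genes were taken as those with an interaction of more than 1 in size, an unadjusted p under 0.05 and the same sign in every replicate number that gave a value. A candidate was called mock-level when its mock difference between the backgrounds was at least 2 times its DEX difference in size, DEX-level in the opposite case, and mixed otherwise. The rule uses the interaction, so the candidates' interactions are a description and carry no test. The 12-array fit gave 52 candidates (0.159% of loci), of which 14 were mock-level, 29 DEX-level and 9 mixed. The 11-array fit gave 147 (0.451%), of which 11 were mock-level, 122 DEX-level and 14 mixed. They shared 38 genes, 73.1% of the first list and 25.9% of the second, and all 38 had the same class in both. With 11 arrays the sign had to be shared by 2 replicate numbers in place of 3, so the lists differ in that rule as well as in the array. The counts also moved when other single arrays were left out, and DEX-level candidates then reached 96 without Col DEX replicate 1 and 81 without sid2 DEX replicate 3. Of the DEX-level candidates, 20 were below 0 in the 12-array fit (0.0613%) and 111 in the 11-array fit (0.34%), while mock-level candidates above 0 numbered 11 (0.0337%) and 9 (0.0276%). The other classes were small, with 3 (0.00919%) and 2 (0.00613%) mock-level genes below 0, 9 (0.0276%) and 11 (0.0337%) DEX-level genes above 0, 8 (0.0245%) and 12 (0.0368%) mixed genes below 0, and 1 (0.00306%) and 2 (0.00613%) mixed genes above 0. The members nearest the limits were AT4G27850 with a size of 1.0 inside and AT3G46230 with 0.994 outside in the 12-array fit, and AT5G10410 with 1.0 inside and AT5G09290 with 0.997 outside in the 11-array fit.

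**Figure D2:**
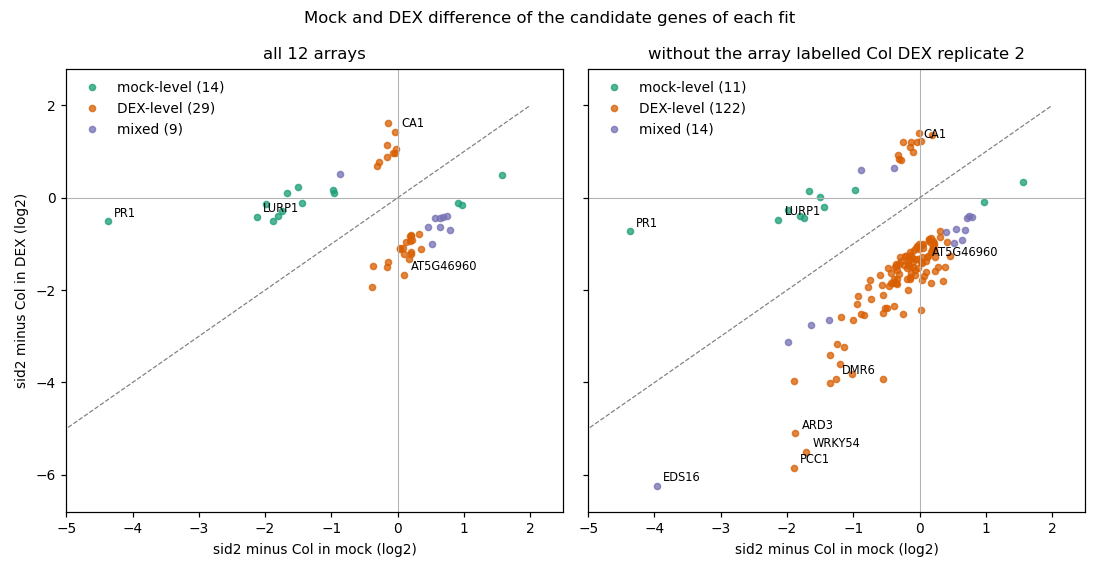
Difference sid2 minus Col in mock (x axis, log2) against the same difference in DEX (y axis, log2) for the 52 candidates of the 12-array fit (left) and the 147 of the 11-array fit (right), coloured by class, with a dashed line where both differences are equal and the interaction is 0. Mock-level genes spread along the x axis in both panels, while the long tail of DEX-level genes below 0 on the y axis is seen on the right.

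Mock-level genes were led by PR1 (AT2G14610), a pathogenesis-related protein of the cell exterior and the classical SA marker. Its log2 intensity was 8.55, 9.93 and 9.78 in Col mock and 5.64, 4.60 and 4.91 in sid2 mock. After DEX it was 13.81, 13.27 and 13.96 in Col and 13.04, 13.30 and 13.18 in sid2. The backgrounds did not overlap in mock, whereas in DEX the array labelled Col DEX replicate 2 fell within the sid2 range. The mock difference was -4.37 ± 0.36 (SE, adjusted p = 0.00393, limma), the one locus called in mock in the 12-array fit (0.00306% of loci), and the DEX difference was -0.51 ± 0.36 (adjusted p = 0.938). In the 11-array fit PR1 and EDS16, the gene mutated in sid2 itself, were the 2 loci called in mock (0.00613%). The call of PR1 in mock was not firm, since with any 1 of 8 of the 12 arrays left out 0 loci were called there. The interaction was 3.86 ± 0.50 with an adjusted p of 0.225, and 3.64 ± 0.53 with an adjusted p of 0.114 in the 11-array fit, so it was not called. By replicate number it was 2.13, 5.36 and 4.09.

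LURP1 (AT2G14560), which is needed for basal defence against a downy mildew, had the same outline with more spread. Col mock gave 12.53, 12.45 and 12.14 and sid2 mock 10.44, 9.14 and 11.16, so the groups were apart but sid2 mock covered a wide range. After DEX the values were 13.98, 13.56 and 13.94 in Col and 13.56, 13.51 and 13.17 in sid2. Its interaction by replicate number was 1.68, 3.25 and 0.21.

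A run of 3 neighbouring loci differed in mock in another way, because DEX lowered them in Col instead of raising them. AT2G44380 had 9.37, 8.97 and 9.54 in Col mock, 7.11, 7.48 and 7.32 in sid2 mock, 4.52, 3.78 and 3.93 in Col DEX and 3.92, 3.77 and 4.16 in sid2 DEX. The mock groups were clearly apart (difference -1.99 ± 0.20, adjusted p = 0.0138, limma) and the DEX groups overlapped. The DEX effect was -5.22 ± 0.20 in Col (adjusted p = 3.62e-09) and -3.36 ± 0.20 in sid2 (adjusted p = 9.77e-08). All but 1 of its DEX values lay under the lower quartile of all values at 4.17, so the depth of the fall and the likeness of the end levels are limited by the dim end of the scale. Its interaction by replicate number was 1.66, 1.48 and 2.44. The next locus, AT2G44390, gave 1.59, 1.28 and 2.44, and AT2G44400 gave 1.22, 1.08 and 1.13. All DEX values of AT2G44400 lay between 4.18 and 4.53, also close to that lower quartile, so a further fall could not have been read. The 3 loci lie next to each other, and whether their probes can tell the transcripts apart was not tested.

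SDR3 (AT2G47130), a short-chain dehydrogenase/reductase, had the steadiest interaction of the mock-level genes that DEX raised, with 1.44, 1.62 and 1.34 by replicate number. Its mock levels were 9.38, 10.24 and 9.26 in Col and 7.74, 8.43 and 7.49 in sid2, with no overlap. In DEX the Col arrays ranged from 12.13 to 12.54 and the sid2 arrays from 11.94 to 12.10, without overlap but with a DEX difference (-0.28 ± 0.26) far smaller than that in mock (-1.74 ± 0.26). AT4G25070 gave 1.16, 1.80 and 1.28 and PCR2 (AT1G14870), a plasma membrane protein of the plant cadmium resistance family, 0.97, 1.23 and 1.82. AT1G56120 gave 1.19, 2.29 and 1.70. Of the 11 mock-level genes above 0 in the 12-array fit, the DEX effect was called higher for 7 and lower for 4 in Col, and higher for 7 and lower for 2 in sid2. Over all 32627 loci, 4487 were called higher and 4885 lower in Col, and 4241 and 4840 in sid2. The median mock difference of the 11 genes was -1.74, with a sign that the rule fixes.

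Mock-level genes in the opposite direction were few. AT5G27771, annotated as a transcribed pseudogene, was higher in sid2 mock (5.71, 6.78 and 6.71) than in Col mock (5.11, 5.53 and 5.66), and all its DEX arrays lay between 4.04 and 4.48. The mock difference of 0.97 ± 0.22 had an adjusted p of 0.53 and was not called. Its interaction was -0.56, -1.54 and -1.27 by replicate number. MYB47, an R2R3 MYB family transcription factor, and AT1G12015 completed the 3 such candidates of the 12-array fit.

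DEX-level genes below 0 made up most of the 11-array candidates, and all 3 called loci were among them. DMR6 (AT5G24530), the salicylate hydroxylase whose loss raises SA, is the clearest case. Col mock gave 11.74, 11.26 and 11.28 and sid2 mock 10.28, 10.06 and 10.15. In DEX, sid2 fell to 7.60, 7.34 and 7.23, whereas the Col arrays gave 11.57 and 11.11 in replicates 1 and 3 and 6.79 in replicate 2. The array labelled Col DEX replicate 2 was thus below every sid2 DEX array, and the other Col DEX arrays stayed at the Col mock level. The DEX effect in sid2 was -2.77 ± 0.13 (adjusted p = 8.75e-08, limma, 11 arrays) and that in Col was -0.11 ± 0.15 (adjusted p = 0.611). The interaction was -2.67 ± 0.20 (adjusted p = 0.00552), a 6.35-fold difference between the DEX effects, and by replicate number it was -2.51, 1.75 and -2.76. In the 12-array fit it was -1.17 ± 1.22 (adjusted p = 1).

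ARD3 (AT2G26400), an acireductone dioxygenase of the methionine salvage cycle, was the second called locus. It had 6.57, 6.71 and 7.36 in Col mock and 4.78, 4.81 and 5.44 in sid2 mock. After DEX it reached 10.40 and 10.81 in Col replicates 1 and 3, while sid2 DEX stayed at 5.32, 5.48 and 5.62 and the array labelled Col DEX replicate 2 at 5.64. Its interaction was -3.23 ± 0.28 (adjusted p = 0.00605, limma, 11 arrays), with -3.28, 1.75 and -3.27 by replicate number. AT5G41280 was the third, and the dimmest. All its arrays lay between 3.44 and 3.83, apart from 5.39 and 5.43 in Col DEX replicates 1 and 3, and its interaction was -1.57 ± 0.14 (adjusted p = 0.00605). AT3G44326 came next with -1.87 ± 0.18 (adjusted p = 0.0129), outside the limit. The 3 calls rested on a narrow margin. When any 1 of the other 11 arrays was left out as well, none of the 3 stayed under an adjusted p of 0.01, with a range over those fits of 0.0107 to 0.0361 for DMR6, 0.0134 to 0.0661 for ARD3 and 0.0142 to 0.0661 for AT5G41280.

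Among regulators of the SA response, NIMIN1, WRKY70, WRKY54 and WRKY38 had the same placing, as candidates of the 11-array fit alone. The other regulators in the SA lists below, among them NPR1 and SARD1, were not candidates in either fit. NIMIN1 (AT1G02450), a partner protein that restrains NPR1, had 5.63, 5.88 and 5.58 in Col mock and 4.36, 4.22 and 4.44 in sid2 mock. In DEX it was 7.78 and 8.11 in Col replicates 1 and 3 and 4.5 in replicate 2, and the sid2 arrays lay between 4.40 and 4.8. Only Col DEX replicates 1 and 3 stood above the mock level, and the DEX difference without the array labelled Col DEX replicate 2 was -3.40 ± 0.15 (adjusted p = 9.67e-06, limma). Its interaction was -2.05 ± 0.21 (adjusted p = 0.0129) in the 11-array fit and -0.90 ± 0.94 (adjusted p = 1) in the 12-array fit. WRKY70 (AT3G56400), a transcription factor that promotes SA responses, lay between 11.03 and 11.93 in Col mock and between 10.47 and 11.18 in sid2 mock. After DEX it was 12.47, 9.36 and 12.54 in Col and 8.36, 8.62 and 8.99 in sid2, so the 2 Col arrays that kept SID2 were above their mock levels and every sid2 array was below its own. The DEX effects were 1.18 ± 0.27 (adjusted p = 0.00394) in Col and -2.19 ± 0.24 (adjusted p = 2.22e-05) in sid2. The interaction was -3.36 ± 0.36 with an adjusted p of 0.0152, which missed the limit, and in the 12-array fit it was -2.25 ± 0.95 (adjusted p = 1).

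WRKY54 (AT2G40750), which acts together with WRKY70, had a still larger interaction of -3.80 ± 0.43 (adjusted p = 0.0195, limma, 11 arrays), beside -2.16 ± 1.37 (adjusted p = 1) with 12 arrays. Its DEX levels were 11.63, 6.54 and 10.99 in Col and 5.66, 6.39 and 5.51 in sid2, against 9.55 to 10.46 in Col mock and 7.91 to 8.62 in sid2 mock. The array labelled Col DEX replicate 2 lay just above the sid2 range and the other Col DEX arrays far above it. WRKY38 (AT5G22570), described as a negative regulator of basal defence, gave 6.08, 3.75 and 6.47 in Col DEX and 3.79, 3.68 and 3.35 in sid2 DEX. Its sid2 mock arrays gave 4.06, 3.44 and 3.76. All sid2 arrays of WRKY38 and the array labelled Col DEX replicate 2 lay under the lower quartile of 4.17. Both of its differences are therefore limited by the dim end of the scale. For both genes replicate 2 turned the sign of the interaction, with 2.40 for WRKY54 and 1.11 for WRKY38 against -4.60 and -1.75 in replicate 1 and -4.28 and -1.81 in replicate 3. For WRKY67 (AT1G66550) replicate 2 gave -0.14, so it was a candidate in both fits, with -1.46 ± 0.60 and -2.16 ± 0.24. The array labelled Col DEX replicate 2 (7.90) still lay below every sid2 DEX array of WRKY67. Its sign in replicate 2 came from a mock difference of 0.22, beside a DEX difference of 0.07. The mock arrays of WRKY67 lay between 3.27 and 4.01, under the lower quartile of 4.17. Its mock difference is therefore limited by the dim end of the scale.

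Counted over the whole WRKY family, which was looked up by symbol after these values had been seen, 8 of 67 members on the array were candidates below 0 in the 11-array fit, where 125 of 32627 loci were, and 0 above it. They were WRKY67, WRKY66, WRKY59, WRKY54, WRKY70, WRKY38, WRKY50 and the mixed WRKY51, and 7 members were called lower in sid2 in DEX, where 38 of all loci (0.116%) were. The family as a whole was not displaced to that degree, with 42 of 67 members below 0 and a median of -0.12, beside 16278 of 32627 loci and a median of 0.00. In the 12-array fit WRKY67 alone was a candidate. Receptor-like proteins, membrane proteins with a leucine-rich repeat exterior, gave 6 candidates below 0 of 54 in the 11-array fit, namely RLP11, RLP32, RLP33, RLP34, RLP36 and RLP38, and 1 in the 12-array fit, RLP11. Cysteine-rich receptor-like kinases, looked up in the same way, gave 1 of 40 (CRK5) in the 11-array fit and 0 in the other. RLP38 (AT3G23120) had 10.56, 7.33 and 10.41 in Col DEX and 7.75, 7.03 and 7.03 in sid2 DEX, beside 11.07, 10.63 and 10.27 in Col mock and 9.64, 9.11 and 9.49 in sid2 mock. Members of this family resemble each other, and cross-hybridisation between them was not tested.

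PCC1 (AT3G22231), a small membrane protein induced by pathogens, was a DEX-level candidate of the 11-array fit with much spread. Col mock gave 13.32, 12.36 and 12.37, while sid2 mock gave 11.85, 8.12 and 12.38, a range of more than 4 log2 units. In DEX it was 10.26, 4.11 and 9.78 in Col and 4.01, 4.14 and 3.72 in sid2. Replicate 2 thus departed from the others both in sid2 mock and in the array labelled Col DEX replicate 2, and the interactions were -4.79, 4.27 and -6.06 by replicate number. The 11-array value was -3.95 ± 1.23 and the 12-array value -2.20 ± 1.80 (adjusted p = 1 for each, limma). All sid2 DEX arrays and the array labelled Col DEX replicate 2 lay under the lower quartile of 4.17, so the size of the interaction is limited by the dim end of the scale. Its neighbour AT3G22235 had -3.25, 2.68 and -4.03.

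For the 111 DEX-level genes below 0 in the 11-array fit, the interaction had a median of -1.26 in replicate 1, 0.03 in replicate 2 and -1.49 in replicate 3. The choice fixes the sign in replicates 1 and 3, and 3 of the 4 arrays behind the value of replicate 2 took part in it as well. The array labelled Col DEX replicate 2 lay within or beyond the sid2 DEX range for 64 of them, within or beyond the range of the other Col DEX arrays for 8, and between the ranges for 39. Its median position was 5.81% of the way from the sid2 DEX mean to the Col DEX mean. Their median mock difference was -0.16, which the class rule keeps below the DEX difference, but single members differed by more, with -1.87 for ARD3 (adjusted p = 0.0126, limma) and -1.26 for DMR6 (adjusted p = 0.0194). The DEX effect was called higher for 57 and lower for 17 in Col, and higher for 33 and lower for 41 in sid2. Over all 32627 loci, 4307 were called higher and 4726 lower in Col, and 4232 and 4836 in sid2. Whether the class differed from all loci in these counts was not tested. The class therefore held both genes that DEX raised in Col and not in sid2, such as ARD3 and NIMIN1, and genes that DEX lowered in sid2 and not, or less, in Col, such as DMR6.

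**Figure D3:**
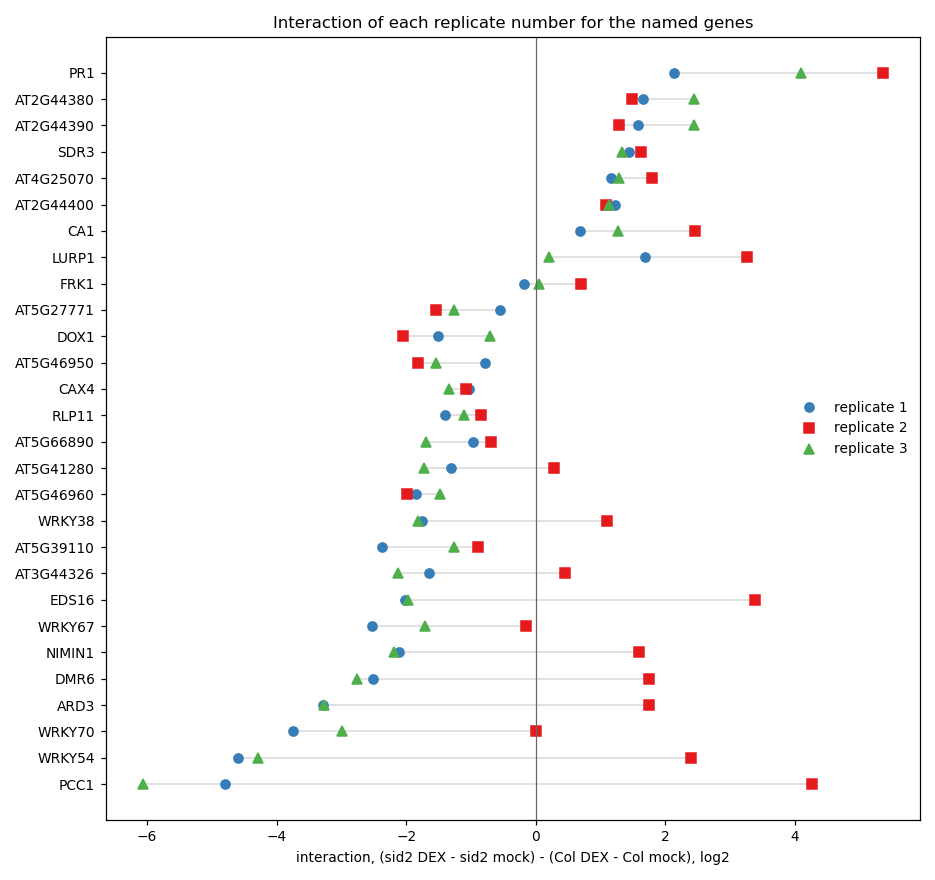
Interaction in log2 for each named gene in replicates 1, 2 and 3, ordered by the mean of replicates 1 and 3, with a grey line over the range. Replicate 2 lies on the same side of 0 as the others for PR1, SDR3 and AT5G46960 and on the opposite side of 0 for PCC1, WRKY54, ARD3, DMR6, NIMIN1 and EDS16.

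The rule of the 12-array fit requires the same sign in all 3 replicate numbers, so the shared sign of its candidates is not a finding. Among its DEX-level genes below 0, those described next had the smallest unadjusted p. In them the array labelled Col DEX replicate 2 lay above the sid2 DEX array of its own number. The rules for sign and class make this likely, so it is a description too. WRKY67, of the same class, lacked it, with a DEX difference of 0.07 in replicate 2. AT5G46960 was close to 4 in all mock arrays, between 3.96 and 4.33, near the lower quartile of all values at 4.17. A mock difference could hardly be read at that level, so its DEX-level placing is limited by the dim end of the scale. In DEX it was 7.72, 9.09 and 8.35 in Col and 6.20, 7.07 and 6.89 in sid2, with no overlap. The DEX effect was 4.29 ± 0.27 in Col and 2.52 ± 0.27 in sid2 (adjusted p = 1.51e-07 and 1.1e-05, limma, 12 arrays), and the interaction was -1.84, -1.98 and -1.48 by replicate number (-1.77 ± 0.38, adjusted p = 1). Its neighbour AT5G46950 had 5.60, 7.12 and 7.16 in Col DEX and 4.95, 5.45 and 5.94 in sid2 DEX, which overlapped across replicates but not within any 1 of them.

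DOX1 (AT3G01420), an alpha-dioxygenase that forms oxylipins from fatty acids, had 7.22, 8.17 and 7.83 in Col DEX and 6.17, 6.59 and 6.80 in sid2 DEX, again apart. Its interaction was -1.51, -2.05 and -0.71. RLP11 (AT1G71390) gave -1.39, -0.85 and -1.10, CAX4 (AT5G01490), a vacuolar cation/proton exchanger, -1.03, -1.07 and -1.34, and AT5G66890 -0.98, -0.69 and -1.70. In AT5G39110 the DEX levels were 8.55, 7.22 and 8.97 in Col and 6.83, 6.63 and 7.28 in sid2, so that the array labelled Col DEX replicate 2 fell inside the sid2 range while its interaction kept the sign, with -2.38, -0.89 and -1.27. DEX raised all 7 of these genes in both backgrounds at an adjusted p under 0.01 in the 12-array fit, and the difference was one of size. In mock, AT5G46950 (3.37 to 3.88) and AT5G66890 (2.68 to 3.47) lay under the lower quartile of 4.17. DOX1 (3.48 to 4.69) and CAX4 (3.74 to 4.46) lay near it. The DEX-level placing of these genes is limited by the dim end as well. None of the 20 DEX-level genes below 0 in that fit was called for the interaction or for the DEX difference.

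DEX-level genes above 0 numbered 9 in the 12-array fit. Among them CA1 (AT3G01500), the chloroplast beta carbonic anhydrase and one of the mesophyll markers, was between 13.74 and 14.06 in all mock arrays. After DEX it was 9.47, 8.14 and 8.08 in Col and 10.14, 10.51 and 9.33 in sid2. The lowest sid2 array lay below the highest Col array, although sid2 was higher within each replicate number, with interactions of 0.68, 2.46 and 1.27. The DEX effect was -5.38 ± 0.34 in Col and -3.91 ± 0.34 in sid2 (adjusted p = 1.5e-07 and 2e-06, limma, 12 arrays). GUN4, a regulator of tetrapyrrole synthesis in the chloroplast, PTAC16, a protein of the plastid nucleoid, and BBX14, a B-box family protein, were also among these 9, of which DEX lowered 7 and raised 2 in both backgrounds. Of the 11 such candidates of the 11-array fit, the DEX effect was called higher for 5 and lower for 2 in Col, and higher for 9 and lower for 2 in sid2. The counts over all loci are those given above for each fit. The genes named here were picked after their values were seen. GUN4 gave 0.74, 1.67 and 0.65 by replicate number, PTAC16 0.50, 2.01 and 0.72, and BBX14 1.24, 1.16 and 0.72. The summed mesophyll markers were 14.21 to 14.89 in Col DEX and 14.40 to 14.97 in sid2 DEX, and their part in these values was not tested. In the 11-array fit CA1, AT2G38600 and AT5G48110 were the members of the 9 that remained candidates.

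The interaction of each class was then read in arrays that had not chosen it. Candidates were taken from the 8 arrays of 2 replicate numbers, and their interaction was read in the 4 arrays of the replicate number left out. With replicate 2 left out, 97 DEX-level genes below 0 were chosen, and in replicate 2 only 38 of them (39.2%) had the same sign, against 60.1% of all loci. In that sign 8 exceeded 2-fold, which is 8.25% against 1.16% of all loci. Their median was -1.44 where they were chosen and 0.19 where they were read. Every DEX difference of replicate 2 uses the array labelled Col DEX replicate 2, which went against its label. The median DEX difference of the 97 genes there was -0.15. The reading in replicate 2 therefore cannot show whether the DEX-level class is stable. The 14 mock-level genes above 0 are placed by their difference in mock, which does not use that array. Their interaction in replicate 2 does use it, through the DEX difference. The medians of these genes in replicate 2 were -0.84 for the mock difference and 0.06 for the DEX difference. The sign of the interaction there is therefore not free of that array, whereas the mock difference is. In replicate 2, 13 of them had the same sign (39.9% of all loci had that sign) and 8 were over 2-fold (57.1%, against 2.04% of all loci). Their medians were 1.23 and 1.16.

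**Figure D4:**
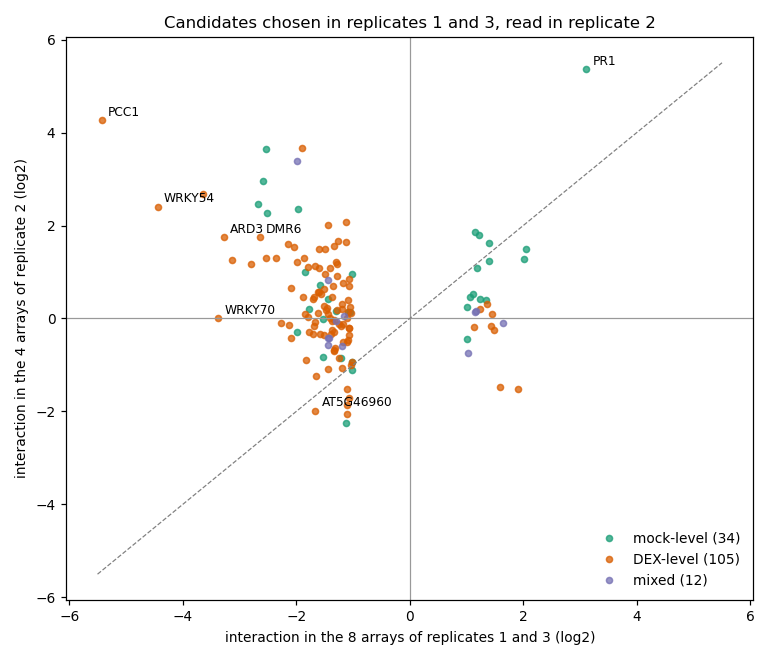
Interaction in the 8 arrays of replicates 1 and 3 (x axis, log2), which chose the candidates, against the interaction in the 4 arrays of replicate 2 (y axis, log2), coloured by class, with a dashed line of equality. Mock-level genes above 0 stay above 0 in 13 of 14 cases, while 59 of the 97 DEX-level genes on the left have lost the sign. The values on the y axis use the array labelled Col DEX replicate 2.

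When replicate 1 or 3 was left out, the array labelled Col DEX replicate 2 was among those that chose the genes. With replicate 1 left out, 12 DEX-level genes below 0 were chosen and 12 kept the sign (47.5% of all loci), with 4 over 2-fold (1.13% of all loci). With replicate 3 left out the numbers were 9 of 12 (45% of all loci) and 5 (1.18% of all loci). Mock-level genes above 0 kept the sign in 9 of 12 with replicate 1 left out and in 13 of 15 with replicate 3 left out, and 7 and 9 of them exceeded 2-fold. Of all loci, 52.5% and 55% had that sign, and 0.607% and 0.84% exceeded 2-fold in it. In contrast, the mock-level genes below 0 kept their sign in 5 of 11, 7 of 20 and 5 of 9, for replicates 1, 2 and 3 left out. Of all loci, 47.5%, 60.1% and 45% had that sign. DEX-level genes above 0 kept theirs in 9 of 29, 3 of 8 and 5 of 6, beside 52.5%, 39.9% and 55% of all loci.

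Across all 32627 loci the interactions of replicates 1 and 3 had a correlation of 0.183, those of replicates 1 and 2 of -0.05 and those of replicates 2 and 3 of 0.06. The DEX difference correlated at 0.443 between replicates 1 and 3, at 0.143 between 1 and 2 and at 0.104 between 2 and 3, and the mock difference at 0.205, 0.175 and 0.252. These are correlations across loci, which are not independent, and no p is given. The mock differences were about equally alike in all 3 combinations, whereas the DEX differences stood out for replicates 1 and 3. Every DEX difference and interaction of replicate 2 uses the array labelled Col DEX replicate 2. The part of that array in these values was not tested. An interaction of more than 2-fold was shown by 566 loci in replicate 1, 1042 in replicate 2 and 659 in replicate 3, with 664 of the 1042 above 0 compared with 198 of 566 and 274 of 659.

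Genes were also grouped by their place in the SA pathway, and differences between the groups were not tested. Over all loci, 51.2% were below 0 in the 12-array fit and 49.9% in the 11-array fit, and 0.159% and 0.451% were candidates. In the list for SA synthesis and its regulators, 8 of 10 members were below 0 in the 12-array fit with a median of -0.16 and 0 candidates. In the 11-array fit 9 were, with a median of -0.37, and the sole candidate was EDS16, the gene mutated in sid2 itself. In that fit the transport protein EDS5 was at 0.00, the lipase-like regulator PAD4 at -0.66 and the transcription factor SARD1 at 0.37. Of SA perception, NPR1 (-0.24), NPR3 (-0.59) and NPR4 (-0.52) were all below 0 in the 11-array fit without passing any limit, and NIMIN1 was a candidate. The medians of this list were -0.35 in the 12-array fit, with 0 candidates, and -0.52 in the 11-array fit. The list holds 6 genes of which 5 had a value, and NIMIN2 was not analysed here. For SA breakdown and conjugation 4 of 6 were below 0 in the 12-array fit (median -0.23, 0 candidates) and 5 of 6 in the 11-array fit (median -0.74), with DMR6 as the candidate and UGT74F2, a glucosyl transferase for SA, at -0.87, while UGT76B1, another glycosyl transferase that takes SA, was at 0.52.

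The list of SA-linked WRKY factors had 7 of 7 members below 0 in both fits, with medians of -0.42 and -1.05. Of these, 3 members, WRKY70, WRKY54 and WRKY38, were candidates in the 11-array fit and called lower in sid2 in DEX. Over all loci 51.2% and 49.9% were below 0 in the fits. In the 11-array fit 0.451% of all loci were candidates and 0.116% were called lower in DEX. In replicate 2 alone the median of this list was 1.11. The 8 SA output genes were less uniform, for PR1 and LURP1 were mock-level candidates above 0 and PCC1 a DEX-level candidate below 0. All 8 output genes were lower in sid2 than in Col in mock, with a median of -1.29, and all 8 were lower in DEX, with medians of -0.46 and -0.60 in the fits. Over all loci 51.2% were lower in mock, and 50.7% and 48.7% were lower in DEX. BGL2 (PR2), a beta-1,3-glucanase, had an interaction of -0.50 and -1.20 without being a candidate.

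**Figure D5:**
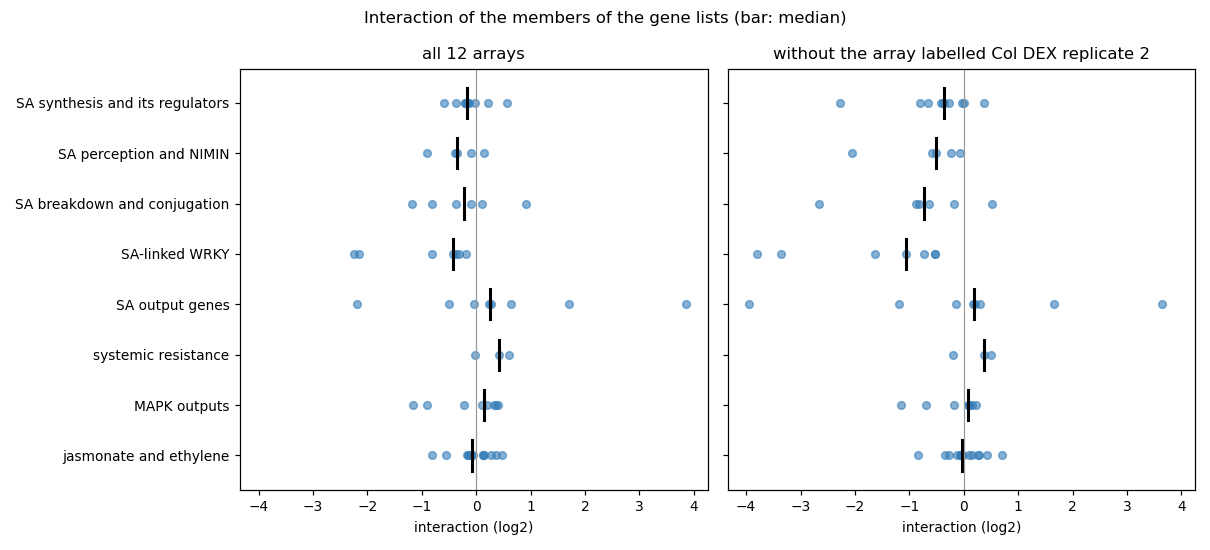
Interaction (x axis, log2) of each member of 8 gene lists in the 12-array fit (left) and the 11-array fit (right), with a black bar at the median. The SA-linked WRKY list moves from a median of -0.42 to -1.05, while the medians of the MAPK output list (0.15 and 0.08) and of the jasmonate and ethylene list (-0.07 and -0.02) stay near 0.

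The lists of MAPK outputs, of jasmonate and ethylene genes and of systemic resistance held 0 candidates in either fit. The 3 systemic resistance genes had median interactions of 0.43 and 0.37. The 8 MAPK outputs, with MKK4 itself counted among them, had medians of 0.15 and 0.08. FRK1 (AT2G19190), a receptor-like kinase gene that is a usual marker of MPK3 and MPK6 activity, was between 5.08 and 7.63 in the mock arrays. In DEX it was 12.03, 12.45 and 12.17 in Col and 11.38, 12.22 and 12.12 in sid2, which overlapped. Its interaction was 0.19 ± 0.66 (adjusted p = 1, limma) in the 12-array fit and 0.10 ± 0.73 in the other, with -0.18, 0.70 and 0.05 by replicate number. CYP71A13, an enzyme of camalexin synthesis, had the largest size in the list at -1.16 ± 0.60, but its replicate values of -2.91, -0.58 and 0.03 did not share a sign. The 14 jasmonate and ethylene genes had medians of -0.07 and -0.02, beside 0.00 over all loci.

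Of the genes that the study lists as SA-responsive, 5 were candidates in the 12-array fit, where 0.159% of all loci were. In the 11-array fit 18 of the listed genes were candidates, where 0.451% of all loci were. The listed candidates comprised 1 mock-level gene in each fit, 4 DEX-level genes in the first and 16 in the second. The list's median interaction was 0.02 and -0.05, so it was not displaced as a whole. In mock, 134 of them (71.7%) were lower in sid2, against 51.2% of all loci. In DEX 134 (71.7%) were lower in the 12-array fit and 130 (69.5%) in the 11-array fit, against 50.7% and 48.7% of all loci. In Cluster III of that list 21 of 25 members were above 0 in the 12-array fit and 20 of 25 in the other, with medians of 0.25 and 0.18, beside 15925 and 16349 of 32627 loci. In Cluster I 49 and 45 of 85 were above 0. The clusters were drawn partly from these arrays and are not independent evidence.

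Candidates often lay close to each other. In the 12-array fit 9 of 52 (17.3%) had another candidate of the same sign among the 5 nearest loci on either side, and in the 11-array fit 35 of 145 with a position (24.1%) did. Besides AT2G44380 to AT2G44400 and AT5G46950 with AT5G46960, these included DMR6 with the beta-glucosidase gene BGLU31, WRKY59 with CYP96A5, AT1G72910 with TIR (AT1G72930), and AT1G17600 with AT1G17610. DMR6 and BGLU31 differ in kind but were alike by replicate number, with -2.51, 1.75 and -2.76 for DMR6 and -1.77, 0.23 and -1.14 for BGLU31. How often neighbouring loci share a direction over the whole array was not tested, and probes that read a neighbour's transcript cannot be told apart from a shared response.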

How the data were processed

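RNA of 12 leaf samples was hybridised to a NimbleGen array designed on TAIR9. The authors summarised probe signals with RMA, and the deposited values are linear expression intensities for 32627 loci. They were converted to log2. A model with 4 groups was fitted with limma 3.58.1 in R 4.3.3, with the replicate number as a random block (duplicateCorrelation, statmod 1.5.0), following the methods, which describe 3 independent experiments and treat the replicate as a random factor. Correlations of deviations between same-numbered arrays were 0.00668 to 0.733, with 16 of 18 above 0.1. Adjusted p-values are Benjamini-Hochberg values computed across the whole array. Errors are standard errors of the fit. The number of arrays limits the precision, and depth does not apply to arrays. RMA makes the arrays' distributions alike, so a change in total RNA does not show.

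Symbols came from a RefSeq gene table (TAIR10.1), in which 31993 loci (98.1%) matched, and no coordinates are given. Named genes were EDS16, the loci called for the interaction, the 8 mock-level and 8 DEX-level candidates with the smallest p in each fit, and list members that were candidates or defining members. Other genes named, and the families, were chosen after their values were seen. Members and lists were chosen with earlier results of these data known. The fits were tested on simulated data. Alternatives covered the block, moderation, array weights, centring, a filter on dim loci, an added 16 before log2, other limits, and leaving out each array and each replicate number.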

Additional observations from a re-analysis of the deposited data

Results flagged for a closer look

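The DEX effects of the backgrounds differed by the test of the difference itself for 3 genes, in the fit without the array labelled Col DEX replicate 2 (limma). DMR6 had an interaction of -2.67 (adjusted p = 0.00552), ARD3 of -3.23 (adjusted p = 0.00605) and AT5G41280 of -1.57 (adjusted p = 0.00605). In the 12-array fit these were -1.17, -1.60 and -0.91 with an adjusted p of 1 for each, since replicate 2 gave 1.75, 1.75 and 0.28. AT5G41280 was dim, between 3.44 and 3.83 in all arrays apart from Col DEX replicates 1 and 3. Groups of 3 arrays were too small for a test of single outlying values.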

How the results depend on the processing

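The interaction of the 12-array fit gave 0 calls under the other alternatives, and 3 once the array labelled Col DEX replicate 2 was left out. In the 11-array fit, 3 calls became 10 at an adjusted p under 0.05, 7 with array weights, and 0 with a test against 2-fold. The pairing mattered: calls were 0 with no replicate block, 2 with it as a fixed term and 0 from the differences of each replicate number. Leaving out 1 more array or a replicate number gave 0 to 1. Calls in DEX (38) became 72 at the looser limit, 25 without the block and 8 against 2-fold. Leaving out 1 more array gave 14 (Col DEX replicate 3) to 44 calls, with 17 without Col DEX replicate 1, and leaving out replicates 1, 2 or 3 gave 0, 13 and 1. With all arrays the calls in DEX were 0 and reached 38 without the array and 13 without replicate 2. Calls in mock (1 and 2) ranged from 0 to 2 with arrays left out. With 12 arrays they were 3 at the looser limit, 2 with weights, centring or 16 added, and 0 with the fixed replicate block or against 2-fold. With 11 they were 11, 8 with weights, and 1 against 2-fold.

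Candidates depended on single arrays. DEX-level candidates (29 with 12 arrays) ranged from 18 without Col mock replicate 3 to 122 without the array labelled Col DEX replicate 2, with 96 without Col DEX replicate 1, 81 without sid2 DEX replicate 3, 46 without sid2 DEX replicate 2, 19 without Col mock replicate 1 or sid2 mock replicate 2, and 105 and 18 without replicates 2 and 3. The 122 of the 11-array fit ranged from 93 to 189 (Col DEX replicate 1) and were 185 without Col DEX replicate 3. Mock-level candidates (14) ranged from 11 to 44 (sid2 mock replicate 2), and were 26 to 36 without sid2 mock replicate 1 or any Col mock array and 23, 34 and 24 without replicates 1, 2 and 3. The 11 of the 11-array fit ranged from 7 (Col DEX replicate 3) to 32 (sid2 mock replicate 2), or 34 without replicate 2, and were 19 to 26 without sid2 mock replicate 1 or any Col mock array. At an unadjusted p under 0.01, DEX-level candidates were 6 and 80 and mock-level ones 8 and 6, and with 16 added the 12-array DEX-level count was 15. The median of the SA-responsive genes stayed between -0.05 and 0.07 (12 arrays) and between -0.09 and 0.01 (11 arrays).

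Of the named genes, EDS16 and FRK1 alone changed sign under any alternative. EDS16 in the 12-array fit was 0.10 with weights and -2.27 to 0.90 with single arrays left out (0.20 without sid2 mock replicate 2, 0.78 without Col DEX replicate 3), and 0.71 and 0.69 without replicates 1 and 3. FRK1 in the 12-array fit ranged from -0.39 to 0.70, with -0.09 and -0.08 among these and -0.063 without replicate 2. In the 11-array fit it was -0.13 with the fixed replicate block, -0.063 from the replicate differences and without replicate 2, and -0.37 to 0.63 with single arrays left out, with -0.14 and -0.28 among these. The cause was not tested. Precision is limited by 3 arrays a group, and 2 for Col DEX in the 11-array fit.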
